A study of Homo sapiens with 4 samples.

Results

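Domains of folded chromatin were examined around 9 genes of the human pluripotency network, *POU5F1*, *SOX2*, *NANOG*, *LIN28A*, *SALL4*, *PRDM14*, *KLF4*, *MYC* and *ZFP42*. They are 9 of the 20037 protein-coding genes that RefSeq places on the 24 chromosomes of the files. The genes were chosen for their known role, and for each the called interval that holds the locus was taken with its 2 neighbours on each side. The cells were H1 hPSCs, an established human embryonic stem cell line grown in mTeSR1 on Matrigel. All cells had been infected with lentivirus and selected with puromycin. One group carried an shRNA against HNRNPU (shHNRNPU) and the control group carried an shRNA against luciferase (shLUC), which human cells lack. Each group had 2 libraries, which made 4 in all. The comparison asks whether lowering HNRNPU, an RNA-binding protein of the nuclear matrix, goes with another division of the chromosome around these genes. The files hold no expression or contact values, so neither the level of HNRNPU nor that of the 9 genes was measured here, and sequencing depth is unknown. The labels do not say whether the libraries of a group came from separate cultures, so the spread between them may be technical.

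Hi-C joins DNA ends that lie close together in the nucleus, here after a HindIII digest, and sequences the joined pairs. A domain is a stretch of chromosome whose parts contact each other more than they contact the sequence outside it, and a border is a position where a domain starts or ends. Borders are known to limit which enhancers reach which promoters. POU5F1, SOX2 and NANOG are the transcription factors at the core of the network, and SALL4, PRDM14, KLF4 and MYC are DNA-binding factors that act with it. LIN28A is an RNA-binding protein that blocks let-7 maturation, and ZFP42 (REX1) is a zinc finger protein widely used as a marker of the undifferentiated state.

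The authors called domains, boundary regions (stretches that lie between domains) and gaps in bins of 40 kb. Between 3419 and 4018 domains were called per library, with the fewest in shHNRNPU replicate 2. Around the 9 loci the pattern was divided. *MYC*, *ZFP42* and *KLF4* lay in long domains that were nearly the same in every library. *POU5F1*, *SOX2* and *NANOG* lay in shorter domains that were alike in shLUC replicate 1 and in both shHNRNPU libraries but differed in shLUC replicate 2. *SALL4* differed in shHNRNPU replicate 2, *PRDM14* differed between all 4 libraries, and *LIN28A* lay in a boundary region in 3 of the 4. No edge of a domain that held one of these genes was at one place in both shLUC libraries and at another in both shHNRNPU libraries. Such edges were rare over the genome too (5.61% of the bins in a domain in each library). With boundary regions split between domains *KLF4* had one. With the locus 1 bin to the left, outside the gene, *POU5F1* had one too. There shLUC replicate 1 gave the neighbouring domain and not the one that held the gene.

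**Figure D1:**
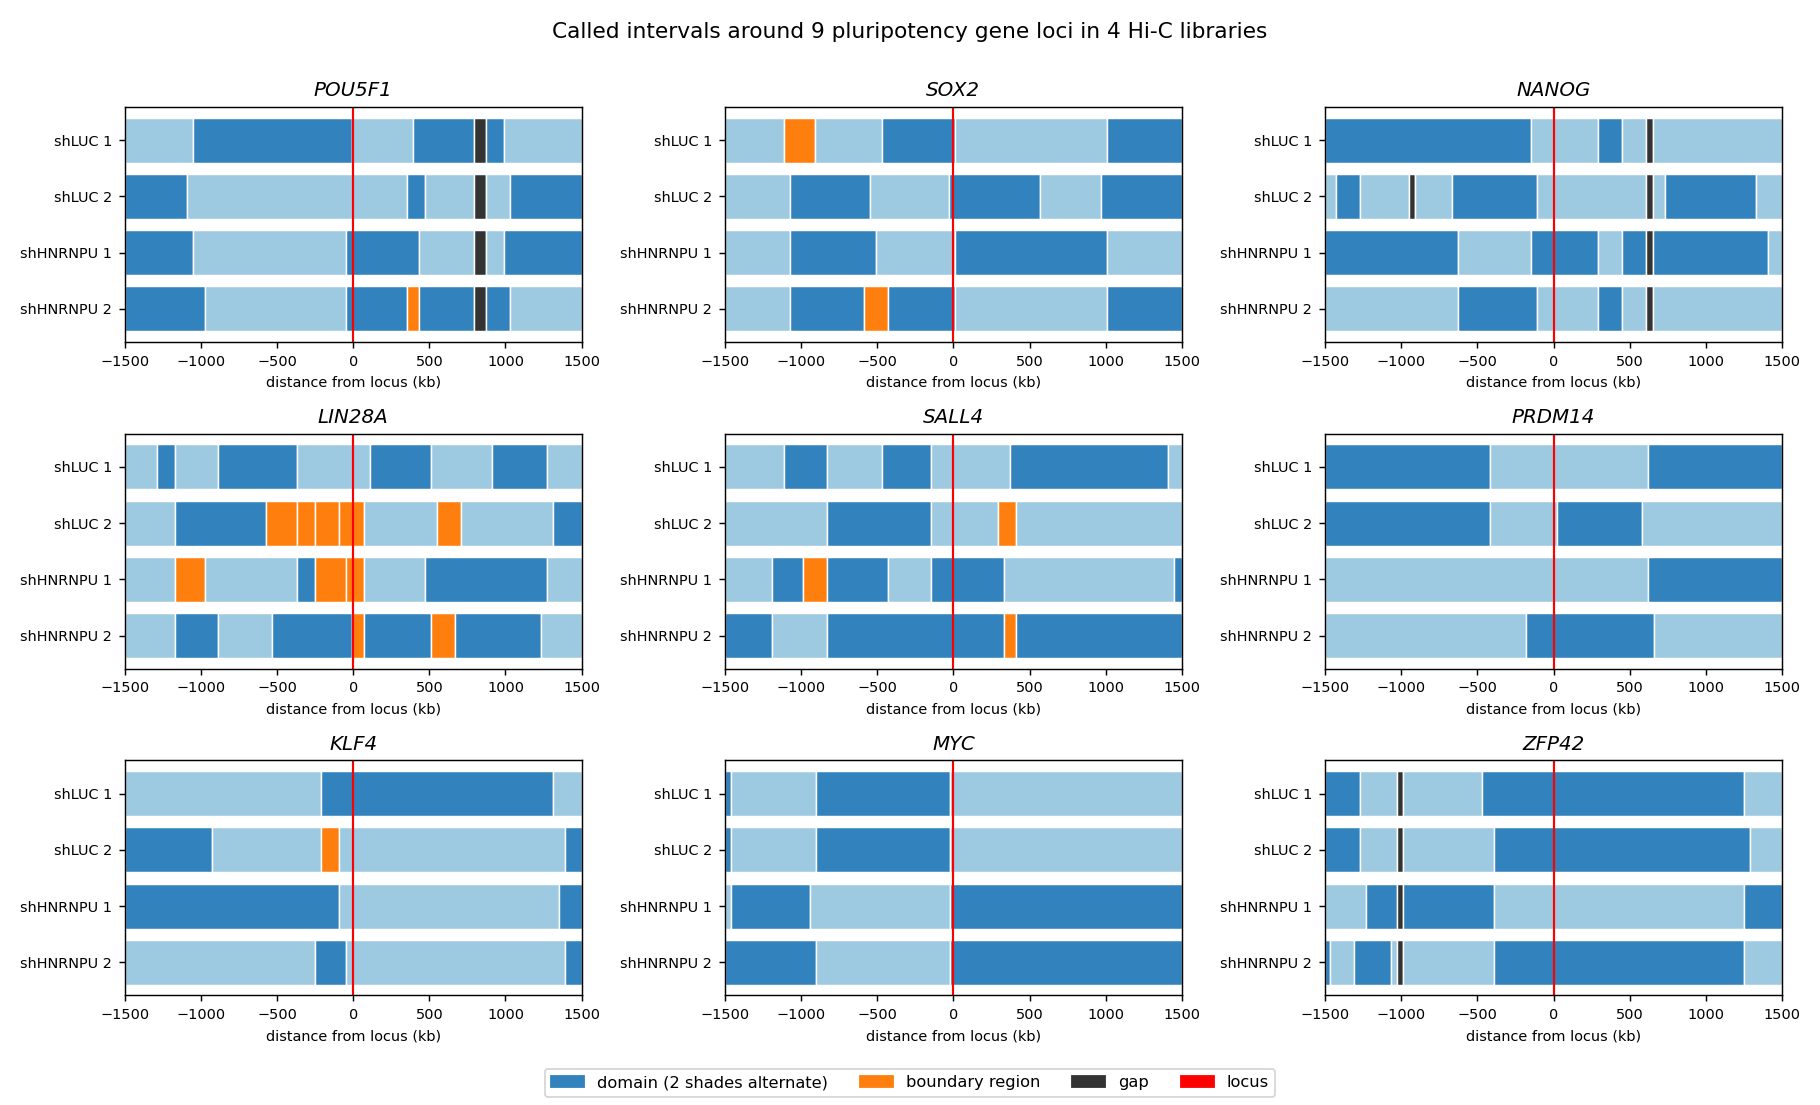
Intervals called around each of the 9 loci, with the distance from the locus in kb on the x axis and 1 row per library (domains in 2 alternating shades of blue, boundary regions in orange, gaps in black, the locus as a red line). The edges beside *MYC* line up in all 4 rows, whereas the domain holding *POU5F1* extended 1090 kb to the left in shLUC replicate 2 and 10 to 50 kb in the other libraries.

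*MYC*, which encodes a growth-promoting transcription factor, was the only member whose domain kept both edges within 1 bin in all 4 libraries. The domain started at 127720001 on chromosome 8 (hg38) in each of the 4 libraries and ended at 129760000 in 3 of them and at 129800000 in shHNRNPU replicate 2. The lengths were thus 2040, 2040, 2040 and 2080 kb, and the groups overlapped. The gene (127735434 to 127742951) sits in the first bin of this domain, with the left edge 20 kb from the position used for the locus and the right edge 2020 to 2060 kb away. The domain held the starts of the same number of annotated genes, 23 besides *MYC*, in each library. In such counts, here and below, the start is the lower coordinate of a gene. For a gene on the minus strand this is its far end and not its start site. The non-coding *PVT1* was the nearest of these and *GSDMC*, a gasdermin gene, was the only other protein-coding one. The border to the left was equally stable, since the neighbouring domain started at 126840001 in 3 libraries and at 126800001 in shHNRNPU replicate 1. To the right a short domain of 240 kb in shLUC replicate 1 and a boundary region of 160 kb in shLUC replicate 2 followed the *MYC* domain. In shHNRNPU replicates 1 and 2 domains of 960 and 920 kb followed it instead. The outer end of this neighbour was at 130000000 and 129920000 for shLUC and at 130720000 in both shHNRNPU libraries. A border at 130720000 was nonetheless called in the shLUC libraries as well, as the end of the next domain.

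*ZFP42* lay near the end of the long arm of chromosome 4, in a domain of 1720 and 1680 kb in shLUC replicates 1 and 2 and of 1640 kb in both shHNRNPU libraries. The left edge was at 187520001 in shLUC replicate 1 and at 187600001 in the other 3 libraries. The right edge was at 189280000 in shLUC replicate 2 and at 189240000 in the other 3. Each shLUC library therefore differed from the shHNRNPU libraries at 1 edge only, and not at the same edge. The mean was 1700 ± 28.3 kb for shLUC and 1640 ± 0 kb for shHNRNPU (SD, n = 2 each). This difference of −60 kb exceeded either SD, in lengths that come in steps of 40 kb. An exact permutation of the library labels (two-sided, n = 2 per group) gave p = 0.333. That is the lowest p open to 2 libraries against 2, so no comparison here can pass the usual threshold. The genes *TRIML2* and *TRIML1*, relatives of the tripartite motif family, started in the same domain in every library. On the left the domain was followed in each library by a domain that started at 187000001 and a gap from 186960001.

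*KLF4*, a zinc finger reprogramming factor, lay near the left edge of a domain of 1520 and 1480 kb in the shLUC libraries and of 1440 kb in both shHNRNPU libraries. Again both shHNRNPU lengths were below both shLUC lengths (1440 ± 0 against 1500 ± 28.3 kb, SD, n = 2 each, difference −60 kb, exact permutation p = 0.333). On chromosome 9 the left edge was at 107280001 and 107400001 for shLUC and at 107400001 and 107440001 for shHNRNPU, so the groups shared a position. The right edge lay between 108800000 and 108880000 and the groups overlapped there too. The bins to the left were called in a different way in each library. They were part of the *KLF4* domain in shLUC replicate 1, a boundary region of 120 kb in shLUC replicate 2, part of a domain of 1560 kb in shHNRNPU replicate 1 and a domain of 200 kb in shHNRNPU replicate 2.

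*POU5F1* encodes OCT4, the POU factor of the core network, and lies in the major histocompatibility complex on chromosome 6 (31164337 to 31170682). The domain that held it was 400 kb long in shLUC replicate 1 (31160001 to 31560000), 480 kb in shHNRNPU replicate 1 (31120001 to 31600000) and 400 kb in its replicate (31120001 to 31520000). In shLUC replicate 2 it was 1440 kb long (30080001 to 31520000), since no border was called next to the gene. The border beside *POU5F1* was thus called in 3 of the 4 libraries, and it lay 10 kb from the locus in shLUC replicate 1 and 50 kb from it in both shHNRNPU libraries. The shHNRNPU mean was 440 ± 56.6 kb and the shLUC mean was 920 ± 735 kb (SD, n = 2 each), a difference within the spread of the shLUC libraries (exact permutation p = 1). Without shLUC replicate 2 the difference changed from −480 to 40 kb. The class I genes *HLA-C* and *HLA-B* and the related *MICA* and *MICB* started in the *POU5F1* domain in every library. In shLUC replicate 2 the domain held the starts of 42 other protein-coding genes, against 7 to 16 in the other libraries. Further to the right, the border at 31960000 was at the same bin in all 4 libraries, where a gap of 80 kb followed.

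*SOX2*, the HMG-box partner of OCT4, was a locus at which a step of 1 bin decided which domain held the gene. The gene (181711925 to 181714436 on chromosome 3) lies in the bin that ends at 181720000. A border was called at 181720000 in shLUC replicate 1 and in both shHNRNPU libraries, and at 181680000 in shLUC replicate 2. Within 1 bin this is the same border in each library, but *SOX2* fell to its left in 3 libraries and to its right in shLUC replicate 2. The holding domain was accordingly 181240001 to 181720000 (480 kb) in shLUC replicate 1. It started at 181200001 (520 kb) and 181280001 (440 kb) in shHNRNPU replicates 1 and 2 and ended at the same bin. In shLUC replicate 2 it was 181680001 to 182280000 (600 kb), and it overlapped the other 3 by 3.7 to 4% of the sequence that each pair covered. The lengths of the groups overlapped (480 ± 56.6 against 540 ± 84.9 kb, SD, n = 2 each, exact permutation p = 0.667). When the locus was moved 1 bin to the right, the holding domain was 1000 kb in shLUC replicate 1 and both shHNRNPU libraries. Such a step, here to the left, also put *MYC* into the neighbouring domain (880 kb on average in shLUC and 900 kb in shHNRNPU). At *POU5F1* it changed the difference from −480 to −800 kb. In shLUC replicate 1 the position then lay outside the gene, in the neighbouring domain of 1040 kb (30120001 to 31160000). That domain ended within 1 bin of the border at 31120000 in both shHNRNPU libraries. No other protein-coding gene started in the *SOX2* domain of any library. The next border to the right, at 182720000 in 3 libraries and 182680000 in shLUC replicate 2, was also shared by all of them.

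*NANOG*, a homeobox factor, lies on chromosome 12 (7789402 to 7799146) in a cluster with genes of related expression. Its domain started at 7640001 in replicate 1 and at 7680001 in replicate 2 of both groups, so the left edge was kept within 1 bin. The right edge was at 8080000 in shLUC replicate 1 and both shHNRNPU libraries and at 8400000 in shLUC replicate 2. The lengths were 440 and 720 kb in shLUC and 440 and 400 kb in shHNRNPU (580 ± 198 against 420 ± 28.3 kb, SD, n = 2 each, exact permutation p = 0.667). The difference of −160 kb was smaller than the SD of the shLUC libraries and was −20 kb without shLUC replicate 2. In the other 3 libraries 2 domains of 160 kb each took up the sequence between 8080000 and 8400000, where a gap of 40 kb began in all 4 libraries. The starts of 8 other protein-coding genes lay in the *NANOG* domain in every library. Among them were *DPPA3* and *GDF3*, which are also expressed in pluripotent cells, and the glucose transporter gene *SLC2A14*.

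The 250 bases before the start sites of *SOX2* and *NANOG* (RefSeq, GRCh38.p14) are shown because these are the core genes whose position against a border can be given from an annotated start. The *SOX2* sequence (chr3:181711675-181711924, plus strand) ends 8.07 kb before the border at 181720000, and 31.9 kb after the border of shLUC replicate 2. The *NANOG* sequence (chr12:7789152-7789401, plus strand) lies 109 kb from the left border in both second replicates and 149 kb from it in both first replicates. Capitals mark the octamer core ATGCAAA, the letters that POU factors such as OCT4 bind, and the SOX motif ACAATG, each searched on both strands (TTTGCAT and CATTGT on the other).
SOX2: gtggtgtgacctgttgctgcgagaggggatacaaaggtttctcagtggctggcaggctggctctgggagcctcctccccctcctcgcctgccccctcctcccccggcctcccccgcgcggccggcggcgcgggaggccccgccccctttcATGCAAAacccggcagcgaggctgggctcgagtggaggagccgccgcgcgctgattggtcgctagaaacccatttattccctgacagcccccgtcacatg
NANOG: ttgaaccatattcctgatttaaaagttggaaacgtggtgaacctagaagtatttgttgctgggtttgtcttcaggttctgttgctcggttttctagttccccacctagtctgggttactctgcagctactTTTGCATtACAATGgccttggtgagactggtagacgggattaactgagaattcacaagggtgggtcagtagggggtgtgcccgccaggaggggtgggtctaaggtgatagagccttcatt
The *NANOG* window held an octamer core on the opposite strand with a SOX motif directly after it, 1 base apart, and the *SOX2* window held an octamer core alone. Among 35116 promoter windows of this length 3.94% held the octamer core and 9.29% held the SOX motif. The *KLF4* and *ZFP42* windows held neither. HindIII cuts at AAGCTT, which is in 5.02% of all windows and in none of these 4. A match in a window is a description and does not show binding.

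*SALL4*, a zinc finger factor of stem and germ cells, lay on chromosome 20 in a domain that started at 51640001 everywhere except in shHNRNPU replicate 2. The lengths were 520 and 440 kb in shLUC and 480 kb in shHNRNPU replicate 1. In shHNRNPU replicate 2 the start was at 50960001 and the length was 1160 kb. That position was a border in all 4 libraries, so the longer domain joined sequence that the others divided further. The right edge lay between 52080000 and 52160000. The difference of 340 kb lay within the SD of the shHNRNPU group (820 ± 481 against 480 ± 56.6 kb, SD, n = 2 each, exact permutation p = 0.667) and was 0 kb without shHNRNPU replicate 2.

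*PRDM14*, a PR-domain factor of pluripotent and germ cells, had domain lengths from 440 to 2160 kb, the widest range among the members. Its domain on chromosome 8 was 1040 kb in shLUC replicate 1 (69640001 to 70680000), 440 kb in shLUC replicate 2 (69640001 to 70080000), 2160 kb in shHNRNPU replicate 1 (68520001 to 70680000) and 840 kb in its replicate (69880001 to 70720000). The group means of 740 ± 424 and 1500 ± 933 kb (SD, n = 2 each) differed by less than the larger SD (exact permutation p = 0.667). The difference of 760 kb fell to 100 kb with shHNRNPU replicate 1 left out, and with replicate 2 left out it came to 1420 kb. The border at 69640000, 420 kb to the left of the locus, was called in both shLUC libraries. The nearest border of a shHNRNPU library was 240 kb from it. It was the only one of 19 borders shared by the shLUC libraries within 1 Mb of a member that had no shHNRNPU border within 3 bins (120 kb). Over the whole genome 6.34% of such shared borders met this definition. In the other direction, none of 22 borders shared by the shHNRNPU libraries near the members lacked a shLUC border within 3 bins, against 3.05% over the genome. Farther to the right, a border at 71800000 was at the same bin in all 4 libraries.

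*LIN28A* on chromosome 1 (26410817 to 26429728) differed in kind from the other loci. It lay in a boundary region of 160 kb in shLUC replicate 2 (26320001 to 26480000), of 120 kb in shHNRNPU replicate 1 (26360001 to 26480000) and of 80 kb in its replicate (26400001 to 26480000). In shLUC replicate 1 it lay in a domain of 480 kb (26040001 to 26520000). The right edge was kept within 1 bin, and the sequence to the right formed a domain of 400 to 480 kb in every library. To the left, shLUC replicate 2 had a run of further boundary regions and shHNRNPU replicate 1 had another boundary region of 200 kb. Of the bins that lay in no gap 91.7% were in a domain in all 4 libraries, as at the other 8 members, and 0.69% were in a boundary region in at least 3. *DHDDS* and *HMGN2* started in the holding interval in each library. Because its intervals differed in kind, *LIN28A* was left out of the comparison of domain lengths.

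**Figure D2:**
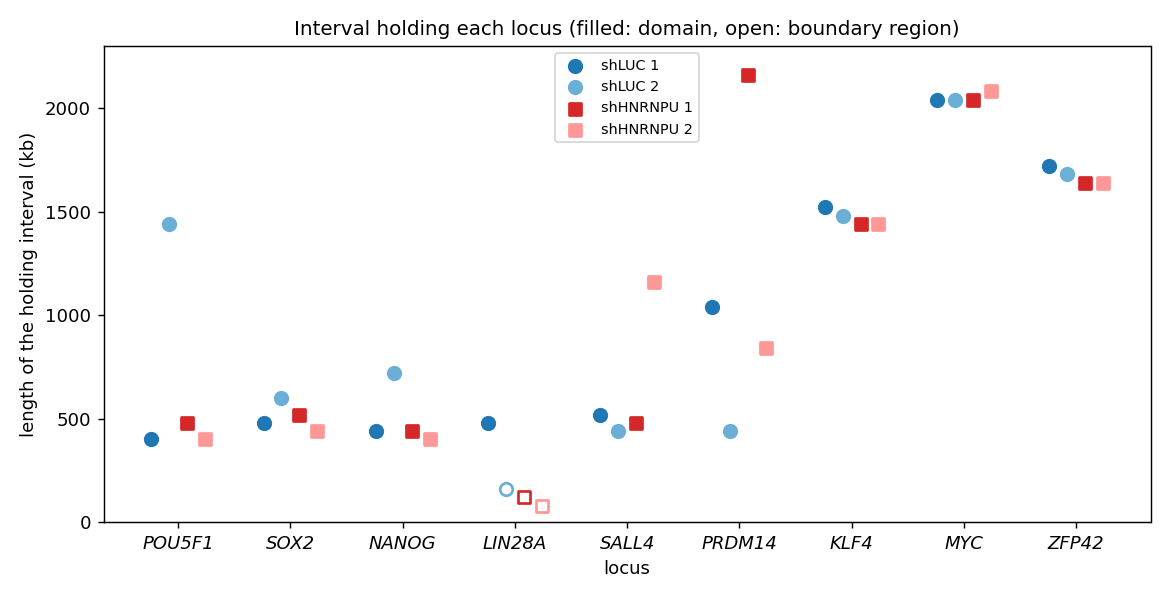
Length in kb of the interval that holds each locus, with 1 point per library (circles shLUC, squares shHNRNPU, open symbols where the interval is a boundary region). The groups did not overlap at *KLF4* and *ZFP42*, where the shHNRNPU libraries were at 1440 and 1640 kb and the shLUC libraries lay 40 to 80 kb higher.

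To place these values, the same calls were made for all 66580 bins that lay in a domain in each library. The domain was shorter in both shHNRNPU libraries than in both shLUC libraries at 2 of the 8 members compared (*KLF4* and *ZFP42*), and at 10.6% of the bins. It was longer in both at 0 of 8 members and at 15.7% of the bins. With the middle of protein-coding genes in place of all bins, a background added after the data were seen, the shares were 7.09% and 19.9%. Both edges were kept within 1 bin in all 4 libraries at 1 of 8 members (*MYC*), at 9.23% of the bins and at 5.98% of the genes. At least 1 edge was kept at 3 of 8 members (*NANOG*, *MYC* and *ZFP42*), at 44% of the bins and at 33.9% of the genes. An edge that replicated within 1 bin in each group but differed by more than 1 bin between the groups was found at 0 of 8 members, at 5.61% of the bins and at 5.62% of the genes. With the loci placed 1 bin to the left it was found at 1 of 8 (*POU5F1*). There shLUC replicate 1 gave the domain to the left of the one that held the gene. No difference between the members and the bins was tested. The counts depended on the libraries used. Without shHNRNPU replicate 2, the library with the fewest domains, the domain was shorter at the same 2 members (27.9% of the bins) and longer at 1, *PRDM14* (26.3%), where an edge also moved (25.3%). Without shLUC replicate 1 it was shorter at 5 of 8 members (20.7% of the bins), *POU5F1*, *SOX2* and *NANOG* beside *KLF4* and *ZFP42*. It was longer there at 2 of 8 (*SALL4* and *PRDM14*, 29.3%), and an edge moved at 4 of 8 (20.6%). Without shHNRNPU replicate 1 it was shorter at 4 of 8 (23.8%), longer at 2 of 8 (43.4%) and an edge moved at 2 of 8 (35.7%). Without shLUC replicate 2 it was shorter at *KLF4* and *ZFP42* (21.7%) and longer at 0 of 8 (29.6%), and an edge moved at *KLF4* and *ZFP42* (20.8%). The bin of the locus touched a border in all 4 libraries at 2 of 9 members, *MYC* and *SOX2*, against 3.05% of the bins in no gap, a measure chosen after the values were seen. Its share over protein-coding genes was not computed, so the members cannot be set against other genes here. The median length over the 8 members was 780 and 1080 kb in the shLUC libraries and 980 and 1000 kb in the shHNRNPU libraries. Over the bins it was 880 and 880 kb in shLUC and 880 and 1120 kb in shHNRNPU.

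Next, the holding intervals were compared between libraries by the share of sequence that both of a pair covered. The mean over the pairs within a group was lower than the mean over the pairs between groups at 6 of the 9 loci. It was the same at *MYC* (99%) and higher at *LIN28A* (50% against 41.7%) and *ZFP42* (96.6% against 96.5%). Where it was lower the gap was small, and widest at *SOX2* (44.2% against 47.9%). The same count over all bins is not given here, so this one cannot be called particular to the members. At *POU5F1* the shLUC pair overlapped by 24.3% and the shHNRNPU pair by 83.3%, and the pairs between groups by 26.3 to 83.3%. At *NANOG* the shLUC pair gave 52.6% and the shHNRNPU pair 90.9%, whereas shLUC replicate 1 and shHNRNPU replicate 1 had the same domain (100%). At *SALL4* it was the shHNRNPU pair that was low, with 41.4% against 84.6% for the shLUC pair. *MYC* gave 98.1 to 100% over the 6 pairs, *ZFP42* 93.2 to 100% and *KLF4* 85 to 97.3%. shLUC replicate 2 had the lowest mean overlap with the other libraries at 4 loci (*POU5F1*, *SOX2*, *NANOG* and *PRDM14*). shLUC replicate 1 had the lowest at 3 (*LIN28A*, *KLF4* and *ZFP42*), shHNRNPU replicate 2 at 2 (*SALL4* and *MYC*) and shHNRNPU replicate 1 at 0. Over the bins each was alone lowest at 17.4%, 18.1%, 39.3% and 19.2% in that order. Over all bins the pair of shLUC libraries had the highest median overlap of the 6 pairs, with 81.2%, and the pairs with shHNRNPU replicate 2 had the lowest, with 65.6 to 66.7%. Over the 8 members the shLUC pair had a median of 68.6% and the shHNRNPU pair one of 87.8%. The library that stood apart at *POU5F1*, *SOX2* and *NANOG* was therefore not the one that stood apart over the genome.

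**Figure D3:**
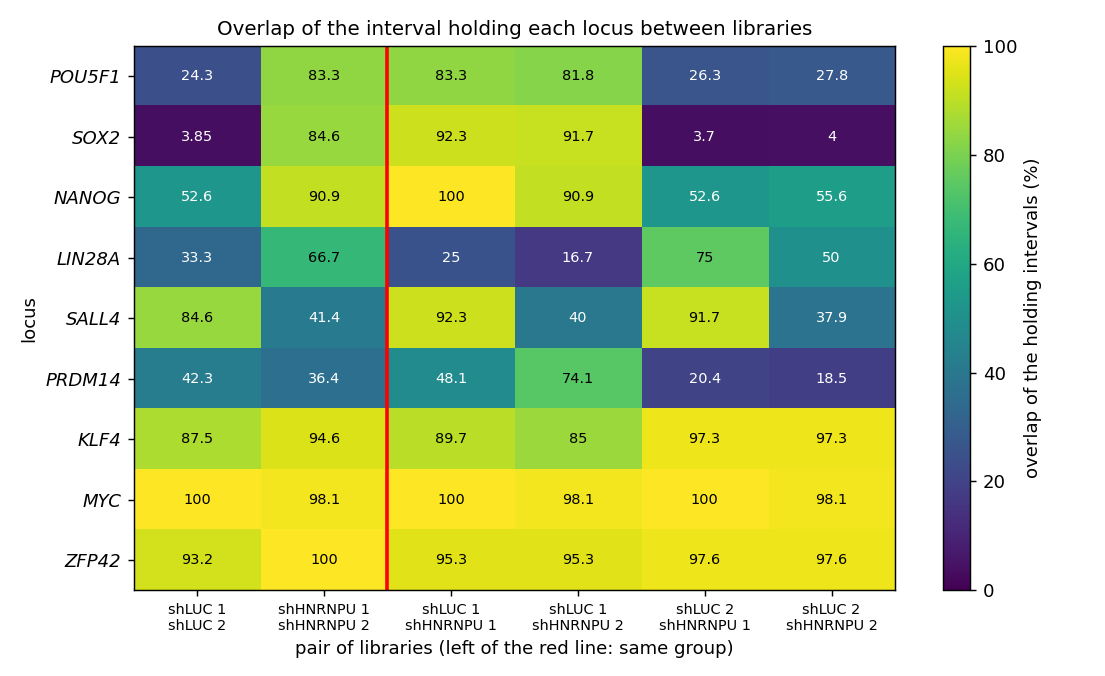
Percent overlap of the interval holding each locus (rows) for the 6 pairs of libraries (columns), with pairs of the same group to the left of the red line. The *MYC*, *ZFP42* and *KLF4* rows are at 85% or above throughout, and the *SOX2* row is at 4% or below in the 3 pairs that hold shLUC replicate 2.

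Borders were then counted around each locus, which does not depend on 1 interval. Within 1 Mb *POU5F1* had 5 and 4 borders for shLUC against 5 and 6 for shHNRNPU. *NANOG* had 5 and 7 against 6 and 6, and *LIN28A* had 5 and 4 against 5 and 6. *SOX2* had 3 and 4 against 2 and 3, *PRDM14* had 2 and 3 against 1 and 2, and *SALL4* had 4 and 4 against 5 and 3. *KLF4* had 1 and 3 against 1 and 2. *MYC* and *ZFP42* had 2 borders in each library. The groups overlapped at all 9 loci (exact permutation p from 0.667 to 1, n = 2 per group), so both shHNRNPU libraries had fewer borders than both shLUC libraries at 0 of 9 members (12% of bins in no gap) and more at 0 of 9 (5.39%). Within 500 kb the groups overlapped at all 9 as well, but the share of bins was computed for 1 Mb only. Of the borders within 1 Mb of a member, 16 of 29 in shLUC replicate 1 and 12 of 33 in shLUC replicate 2 were found within 1 bin in the other 3 libraries, against 40.1% and 40% of all their borders. For shHNRNPU replicates 1 and 2 the counts were 15 of 29 and 14 of 32, against 40.5% and 46.4%. The shares for the members were 55.2%, 36.4%, 51.7% and 43.8%, on both sides of those of the genome. Domain edges beside a gap were counted as borders too, near the members and over the genome. Those at 31960000 and 32040000 (*POU5F1*), 8400000 and 8440000 (*NANOG*) and 187000000 (*ZFP42*) were at the same bin in all 4 libraries.

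**Figure D4:**
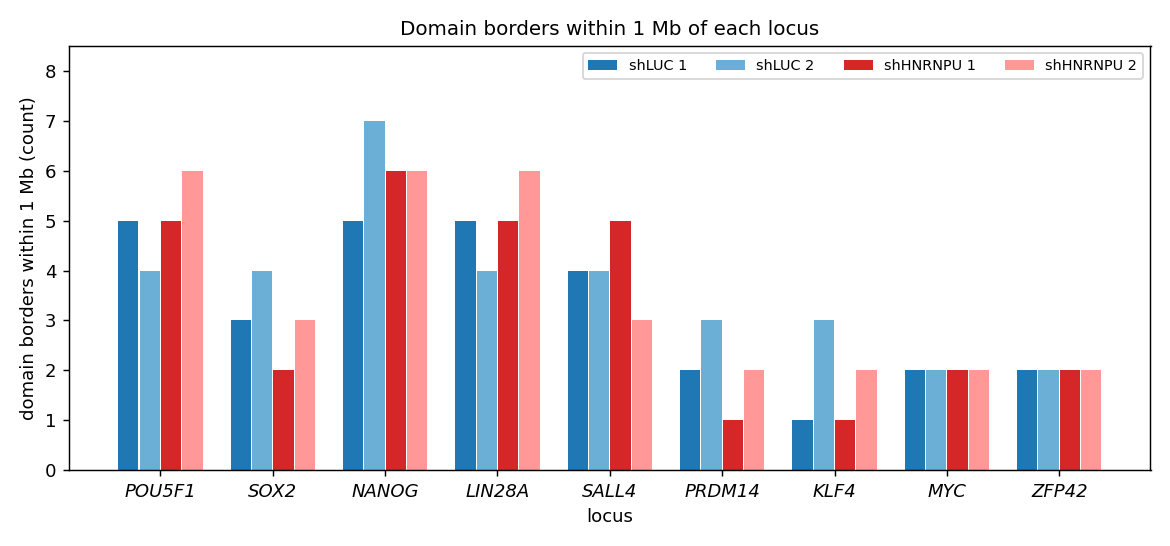
Number of domain borders within 1 Mb of each locus, with 1 bar per library. *NANOG* had the most in 1 library, with 7 in shLUC replicate 2, and *MYC* and *ZFP42* had 2 in each library.

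The intervals next to the holding ones were also followed. Of the 36 outer edges of the first and second neighbours (4 per locus), 4 were kept within 1 bin in all 4 libraries, of which 2 flanked the gap beside *ZFP42*, 1 was to the left of *MYC* and 1 to the right of *SOX2*. Counting neighbours outward adds up any border that a library lacks, so a neighbour's edge can move while a border farther out stays in place. At *MYC* the border at 130720000 was called in all 4 libraries, as the end of the first or of the second neighbour. Of the 144 neighbour intervals, 117 were domains, 14 were boundary regions and 13 were gaps. These counts and the 4 of 36 edges have no share over the genome beside them. Since edges were counted outward, they cannot be set against the share of borders found in the other libraries.

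Finally, 34 other genes of the pluripotency network were placed in the same way, by the middle of the gene. All were matched, and 32 lay in a domain in each library. Their domain was longer in both shHNRNPU libraries at 4 of 32 genes (*ESRRB*, *TFCP2L1*, *LIN28B* and *TCF3*) and shorter in both at 3 of 32 (*KLF5*, *TBX3* and *TCL1A*). These shares lie near those of the bins (15.7% and 10.6%), and the genes are named here after their values were seen. At *LIN28B*, the paralogue of *LIN28A*, the lengths were 760 and 720 kb in shLUC and 800 and 800 kb in shHNRNPU, a step of 1 to 2 bins. At *TFCP2L1* they were 280 and 200 kb in shLUC and 680 and 2840 kb in shHNRNPU, so the groups did not overlap and shHNRNPU replicate 2 was the longest. Both edges were kept at 1 of 32 genes (9.23% of the bins), *TCL1A*, with 600 and 600 kb in shLUC and 560 and 560 kb in shHNRNPU. An edge that moved between the groups was found at 0 of 32 (5.61% of the bins). Genes of the list are not independent, since *LEFTY1* and *LEFTY2*, *DPPA2* and *DPPA4*, and *DPPA3* and *GDF3* each shared a domain, the last pair with *NANOG*.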

How the data were processed

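Hi-C libraries of H1 hPSCs were made with HindIII, and for each of the 4 libraries the authors deposited 3 lists (12 files) of domains, boundary regions and gaps as start and end positions, with no score or count. The submitters' processing notes name hg38 and Bowtie2. The domain caller, its settings and the matrix normalization are not given in the sources used here, and each can change where a border is called. The paper named for these data describes another experiment, so only its style was used. All positions were multiples of 40 kb.

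Groups and replicate numbers came from the titles. Chromosome ends of the files lay 83.7 kb below to 65.4 kb above the hg38 lengths, and 0 RefSeq genes (GRCh38.p14) ended past them, so hg38 positions were used with an uncertainty of some bins. Locus positions were those of the rule, rounded to 10 kb. Gaps of 0 length (15 to 19 per library) were left out. Starts are printed counting from 1.

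An edge was kept when it lay within 1 bin in all 4 libraries. A moved edge lay within 1 bin in each group and more than 1 bin apart between them. Overlap was shared over covered length. Group means were compared by two-sided exact permutation over libraries. p-values were not adjusted, since none can be below 0.333. The members, lists and measures were chosen with earlier results of these data known. The text names the 9 members, listed genes with a moved edge, of which there were none, and up to 5 of the genes that share a member's interval in every library; other listed genes were named after their values were seen. Alternatives were the RefSeq start site where given, joining domains under 3 bins and splitting boundary regions. Other match distances and windows, leaving out each library and a replicate block were also used. Moving the locus by 1 bin and protein-coding genes as background were added after seeing the data. The call of a moved edge was run on simulated libraries, all made from 1 shLUC library with edges shifted by 1 bin at most between replicates. It found planted edges, but real replicates differed by more. The run without planted edges used the same libraries for both groups, so it could not give a false call. GC content and HindIII site density of the intervals were not analysed here. Python 3.11.15, numpy 2.4.6 and matplotlib 3.10.9 were used.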

Additional observations from a re-analysis of the deposited data

How the results depend on the processing

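Of 80 alternative length differences, 74 kept their sign. These include the replicate block, which cannot change a difference and is also counted among the border numbers below. They include the RefSeq start site as well, which was given only for *SOX2*, *NANOG*, *KLF4* and *ZFP42* among the loci compared. None of these changed its domain. The other loci kept their position, so their differences could not change. Joining domains under 3 bins also left each length difference as it was. Without shLUC replicate 2, *POU5F1* went from −480 to 40 kb (range with 1 library left out −1000 to 40 kb). *SOX2* changed from −60 to 200 kb with the locus 1 bin to the right, since it then lay across the border, and *MYC* from 20 to −20 kb with boundary regions split between domains. The other 3 became 0 kb, at *SOX2* without shLUC replicate 2 and at *SALL4* and *MYC* without shHNRNPU replicate 2. Of 108 alternative differences in border number, 85 kept their sign or stayed at 0, 22 went to or from 0 and 1 changed sign (*KLF4* within 1 Mb, 0.5 without shLUC replicate 2, range −1.5 to 0.5). At *POU5F1* the difference was −800 kb with the locus 1 bin to the left, where shLUC replicate 1 gave the neighbouring domain. Moving the locus by 1 bin was chosen after seeing the data.

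With 1 library left out, 0 to 2 members had a longer and 2 to 5 a shorter domain in shHNRNPU, against 26.3 to 43.4% and 20.7 to 27.9% of the bins. The 5 were reached without shLUC replicate 1, where shLUC replicate 2 alone stands for the controls. Likewise 1 to 3 members had both edges kept (13.1 to 18.6% of the bins), and 1 to 4 had a moved edge (20.6 to 35.7%), 4 without shLUC replicate 1 (*POU5F1*, *SOX2*, *NANOG* and *PRDM14*). Fewer libraries then have to match, so such counts rise by construction. Both edges were kept at 0 members with a match at the same bin (2.89% of the bins), at 2 within 2 bins (*MYC* and *ZFP42*, 15.7%) and at 0 with boundary regions split (8.09%). A moved edge was found at 1 member with boundary regions split (*KLF4*, 5.7%) and at 1 with the locus 1 bin to the left (*POU5F1*, 5.61%). With that shift *POU5F1* also joined the members with a shorter domain (3 of 8, 10.6%). Both calls at *POU5F1* set the neighbouring domain of shLUC replicate 1 against the domain that held the gene in the shHNRNPU libraries.

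Setting libraries with the same number against each other (the replicate block) left each difference as it was (−480 kb at *POU5F1*, −60 kb at *KLF4* and at *ZFP42*). Its exact sign-flip p was 0.5, the smallest possible with 2 pairs, or 1. No label ties a number to a batch, 2 pairs are too few to show pairing, and the differences between replicates of the 2 groups had a correlation of 0.0207 over bins, which share the libraries. Unknown depth limits each comparison of borders called or not called.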
